A study of Homo sapiens with 18 samples.

Results

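The IFIT and IFITM genes are the 7 genes IFIT1, IFIT2, IFIT3, IFIT5, IFITM1, IFITM2 and IFITM3, taken by gene symbol from the 41285 genes of the count table, by a rule that uses the symbol alone and no measured value. They were followed through polyA-selected, stranded RNA-seq of K562, a human erythroleukaemia cell line, in 18 libraries that make 9 groups of 2. The study's stated subject is SAMD9, an interferon-induced gene, and its D9 lines carry a catalytically dead Cas9 fused to an activator (VPR) or a repressor (KRAB) that doxycycline switches on. The parental line, K562[parental], was untreated or received interferon alpha (IFN) alone at 1000 U/mL for 24 hours. In the sample titles the parental libraries carry the code iso and the D9 libraries the code WT. The line K562[VPR]-D9, called VPR-D9 here, was untreated or received doxycycline alone in the groups coded D2000 and D6. The line K562[KRAB]-D9, called KRAB-D9 here, was untreated, or received IFN alone, doxycycline alone, or both, with doxycycline started 24 hours before IFN and continued with it. The protocol gives 2 µg/mL for doxycycline, which is carried here for KRAB-D9 and D2000. Not given in the sources used here are the dose of D6, the time in doxycycline without IFN, the guide target of the D9 lines and whether each line grew from a single clone. Parental cells with doxycycline are not among the groups analysed, so an effect of doxycycline itself and an effect of the induced fusion protein cannot be told apart.

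IFIT proteins are cytoplasmic proteins built of tetratricopeptide repeats. IFIT1 binds RNA whose cap lacks methylation of the first nucleotides and blocks its translation. IFIT3 binds and stabilizes IFIT1, IFIT2 forms complexes with both and has been tied to apoptosis, and IFIT5 binds RNA ends that carry a triphosphate. IFITM proteins are small membrane proteins that hinder the fusion of enveloped viruses with the cell: IFITM1 sits mostly at the plasma membrane, while IFITM2 and IFITM3 carry an endocytosis signal and work in endosomes and lysosomes. Type I interferon acts through the receptor chains IFNAR1 and IFNAR2, the kinases JAK1 and TYK2 and the transcription factor complex ISGF3, which binds the interferon-stimulated response element (ISRE) in gene promoters.

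The 4 IFIT genes lie together on chromosome 10 and the 3 IFITM genes on chromosome 11, all protein-coding. In GRCh38 coordinates from the count table, IFIT2 (ENSG00000119922.11) spans chr10:89283694-89309271, IFIT3 (ENSG00000119917.15) chr10:89327307-89377473, IFIT1 (ENSG00000185745.10) chr10:89392546-89406487 and IFIT5 (ENSG00000152778.10) chr10:89414568-89421605. IFITM2 (ENSG00000185201.17) spans chr11:303655-309397, IFITM1 (ENSG00000185885.17) chr11:310041-315272 and IFITM3 (ENSG00000142089.17) chr11:319676-329475. The span of LIPA, a lysosomal lipase gene, overlaps IFIT1, IFIT2 and IFIT3. LIPA reached at most 1.015 CPM, the usual per-library scaling of counts, here after TMM scaling for library composition.

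The stretches printed here show what the promoters of the family share, the ISRE core. Promoter windows of 300 bases, 250 before and 50 after the annotated start, were read from RefSeq's GRCh38.p14 annotation for 5 of the 7 members, IFIT1, IFIT3, IFIT5, IFITM1 and IFITM3, with 2 starts for IFIT3; IFIT2 and IFITM2 were not matched. Each stretch holds the 160 bases before the start and the first 10 after it, 170 bases in all, 5′ to 3′ on the gene's own strand, and capitals mark matches to the ISRE core GAAANNGAAA on either strand. They lie at chr10:89392463-89392632 (plus strand) for IFIT1, chr10:89327837-89328006 and chr10:89332369-89332538 (plus) for IFIT3, chr10:89414408-89414577 (plus) for IFIT5, chr11:313880-314049 (plus) for IFITM1 and chr11:320851-321020 (minus) for IFITM3.
IFIT1: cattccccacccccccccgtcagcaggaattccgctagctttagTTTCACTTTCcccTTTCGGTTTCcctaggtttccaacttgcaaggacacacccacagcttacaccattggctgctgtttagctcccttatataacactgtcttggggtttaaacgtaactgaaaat
IFIT3, upstream start: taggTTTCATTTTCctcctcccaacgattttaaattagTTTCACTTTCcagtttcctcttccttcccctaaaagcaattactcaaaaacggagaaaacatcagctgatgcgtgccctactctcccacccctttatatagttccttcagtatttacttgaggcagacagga
IFIT3, downstream start: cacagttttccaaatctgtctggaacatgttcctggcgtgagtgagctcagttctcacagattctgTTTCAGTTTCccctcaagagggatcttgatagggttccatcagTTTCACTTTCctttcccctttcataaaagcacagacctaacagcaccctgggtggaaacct
IFIT5: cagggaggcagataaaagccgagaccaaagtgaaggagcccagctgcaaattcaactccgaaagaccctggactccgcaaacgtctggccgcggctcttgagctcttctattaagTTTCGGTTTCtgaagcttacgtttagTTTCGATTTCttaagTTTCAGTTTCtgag
IFITM1: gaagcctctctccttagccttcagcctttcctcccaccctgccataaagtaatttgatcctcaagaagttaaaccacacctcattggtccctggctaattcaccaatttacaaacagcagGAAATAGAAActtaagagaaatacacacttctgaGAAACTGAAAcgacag
IFITM3: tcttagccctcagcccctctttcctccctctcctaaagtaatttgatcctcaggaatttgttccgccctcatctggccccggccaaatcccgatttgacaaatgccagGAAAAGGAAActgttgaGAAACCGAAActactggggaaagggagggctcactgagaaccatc
All 6 windows held at least 2 matches, and that of IFIT5 held 3, at 45, 19 and 4 bases before the start. In the IFIT windows every match lay on the strand opposite the gene, and in IFITM1 and IFITM3 on the gene's strand. Of the 27305 genes in the RefSeq table, 4.38% had at least 1 match in a window of this length and 0.311% had 2 or more. The core of the gamma-activated site, TTCNNNGAA, was found once, in IFITM1, where it overlaps the second ISRE match; 9.38% of genes held at least 1. A match describes the letters and does not show binding.

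SAMD9, the gene the study names, had 9.31 and 9.05 CPM in the untreated parental libraries and 167.5 and 154.5 with IFN. In VPR-D9 it had 59.9 and 61.4 CPM untreated, 974.4 and 947.6 in D2000 and 936.1 and 960.5 in D6. In KRAB-D9 it had 0.750 and 0.364 CPM untreated, 0 and 0.117 with doxycycline, 55.0 and 53.5 with IFN and 0.849 and 0.745 with both agents. Library totals ran from 32.7 M to 63 M counts (M for mega), with a median of 52.9 M. Of 12 genes that mark K562 cells, all reached 1 CPM in at least 1 library, and their summed level was 748 to 4240 CPM. Of the markers of other cells, 5 of 6 for monocytes or macrophages (sum 12.5 to 51.2 CPM), 3 of 5 for fibroblasts (3.38 to 40.2 CPM), 2 of 6 for lymphoid cells (3.58 to 18.2 CPM), 2 of 3 for epithelium (30.4 to 98.9 CPM) and 2 of 3 for endothelium (2.03 to 9.02 CPM) stayed under 1 CPM in every library. In bulk RNA such as this, fewer expressing cells and less RNA per cell cannot be told apart. Whether the 2 libraries within a group stem from separate cultures is not in the labels, and the p-values measure only the spread between these libraries, which may be technical. The share of all genes whose libraries did not overlap between 2 groups was not counted. Some members without a call did not overlap either, so a lack of overlap describes the libraries and is no support for a call. All 7 members passed the low-count filter, as did 22143 genes in all. IFIT2 and IFIT5 passed through the groups where they are high: in the untreated parental, untreated KRAB-D9 and doxycycline-treated KRAB-D9 libraries alone they would not have.

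Without IFN the IFITM genes were abundant in untreated parental cells and the IFIT genes were low. Set per gene length as RPKM (the TMM-scaled CPM divided by the deposited gene length in kilobases), IFITM1 stood at 211 ± 4.3 in untreated parental cells (SD, n = 2), IFITM2 at 60.2 ± 0.32 and IFITM3 at 22.1 ± 0.77. On the same RPKM scale IFIT3 was at 0.362 ± 0.069, IFIT1 at 0.113 ± 0.033, IFIT2 at 0.0395 ± 0.0030 and IFIT5 at 0.0157 ± 0.011. IFITM1 had the highest RPKM of the 7 genes in all 9 groups, from 186 to 830. The IFITM sum exceeded the IFIT sum 554-fold in untreated parental cells and 1020-fold in untreated KRAB-D9 cells. With IFN those ratios were 16.2 and 25.6, since the IFIT sum went from 0.530 ± 0.11 to 62.2 ± 1.5 RPKM in parental cells and the IFITM sum from 293 ± 5.4 to 1008 ± 13.

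**Figure D1:**
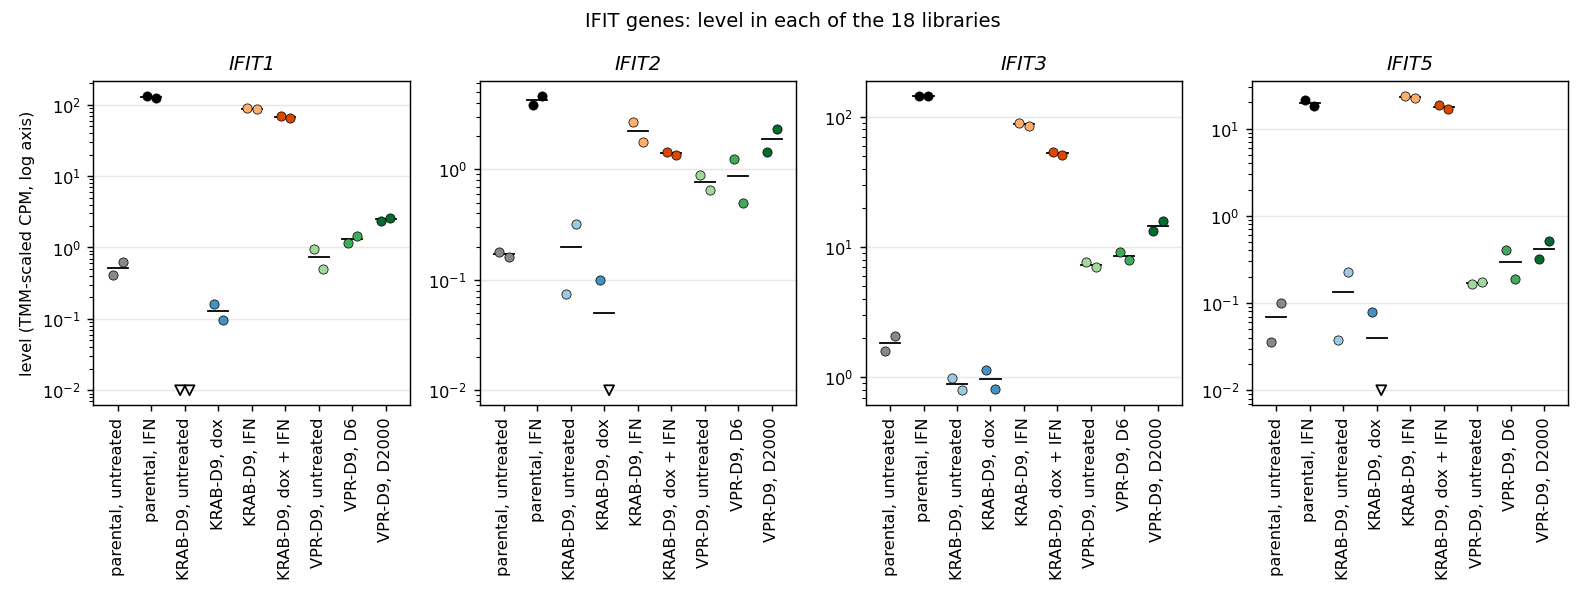
Levels of the 4 IFIT genes in each of the 18 libraries, in TMM-scaled CPM on a log axis, by group; points are libraries and open triangles are libraries with no count, drawn at 0.01. The 6 IFN-treated libraries hold the highest values of IFIT1, IFIT3 and IFIT5, at or above 65.8, 51.2 and 16.9 CPM, and IFIT2 stays at or below 4.645 CPM in every library.

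IFN raised all 7 genes in each of the 3 settings in which it was given. IFIT2 and IFIT5 passed the low-count filter through groups where they are high, so their calls add no support to that count. Over all genes tested 3.03% were called higher with IFN in parental cells, 3.98% in KRAB-D9 and 3.12% in KRAB-D9 with doxycycline (p under 0.05 after Benjamini-Hochberg adjustment in edgeR's quasi-likelihood test). The median log2 difference of the 7 members was 4.61, 3.53 and 4.76 in those settings, against 0 over all genes tested.

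IFIT1, the RNA-cap sensor, went from 0.414 and 0.626 CPM in the untreated parental libraries to 133.5 and 126 CPM with IFN. In KRAB-D9 it had no count in either untreated library, and IFN brought it to 88.6 and 86.0 CPM. With doxycycline it went from 0.160 and 0.0975 CPM to 69.0 and 65.8 CPM. The treated and untreated libraries did not overlap in any setting, which is no support for the calls. The log2 difference was 7.97 ± 0.14 (SE) in parental cells (edgeR adjusted p = 4.46e-34, n = 2 and 2) and 9.01 ± 0.17 in KRAB-D9 with doxycycline (adjusted p = 1.75e-32). In KRAB-D9 without doxycycline the gene was at least 2820-fold higher, counted against a floor of 3 counts over the untreated group. IFIT3, the partner of IFIT1, went from 1.585 and 2.08 CPM to 144.8 in both parental libraries, a rise of 6.31 ± 0.11 (edgeR adjusted p = 2.57e-34). In KRAB-D9 it rose from 0.993 and 0.796 to 89.2 and 85.4 CPM (6.59 ± 0.13), and with doxycycline from 1.14 and 0.819 to 53.3 and 51.2 CPM (5.74 ± 0.13).

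IFIT5, the sensor of triphosphate ends, rested on very few counts without IFN, 2 and 5 in the untreated parental libraries. It reached 21.3 and 18.2 CPM with IFN in parental cells, 23.7 and 22.5 in KRAB-D9 and 18.6 and 16.9 in KRAB-D9 with doxycycline. Its rises were 8.16 ± 0.33, 7.52 ± 0.31 and 8.73 ± 0.36 on the log2 scale (edgeR adjusted p from 1.38e-20 to 2.69e-20). Single low libraries set the size of these rises but not the call: without replicate 1 or 2 of untreated KRAB-D9 the value was 6.65 or 9.18, without replicate 1 or 2 of untreated parental 7.58 or 9.01, and without replicate 1 or 2 of KRAB-D9 with doxycycline 12.89 or 7.76. IFIT2 stayed low even with IFN, at 3.83 and 4.645 CPM in parental cells, 2.71 and 1.76 in KRAB-D9 and 1.45 and 1.36 in KRAB-D9 with doxycycline. These libraries all lay above their controls, which were at 0.162 to 0.180, 0.0750 to 0.318 and 0 to 0.0997 CPM. IFIT2 rose by 4.61 ± 0.52 in parental cells (edgeR adjusted p = 3.08e-08), by 3.53 ± 0.53 in KRAB-D9 (9.25e-06) and by 4.76 ± 0.65 with doxycycline (2.34e-06). IFIT2, like IFIT5, passed the low-count filter through groups where it is high, so these p-values are no support on their own. Leaving out replicate 1 or 2 of untreated KRAB-D9 gave 2.78 or 4.84, and leaving out replicate 1 or 2 of KRAB-D9 with doxycycline 9.23 or 3.78, where the higher value stands against a library with no count. Set per length, IFIT2 in IFN-treated parental cells was at 0.980 ± 0.13 RPKM beside 28.1 ± 1.1 for IFIT1 and 28.6 ± 0.00098 for IFIT3.

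**Figure D2:**
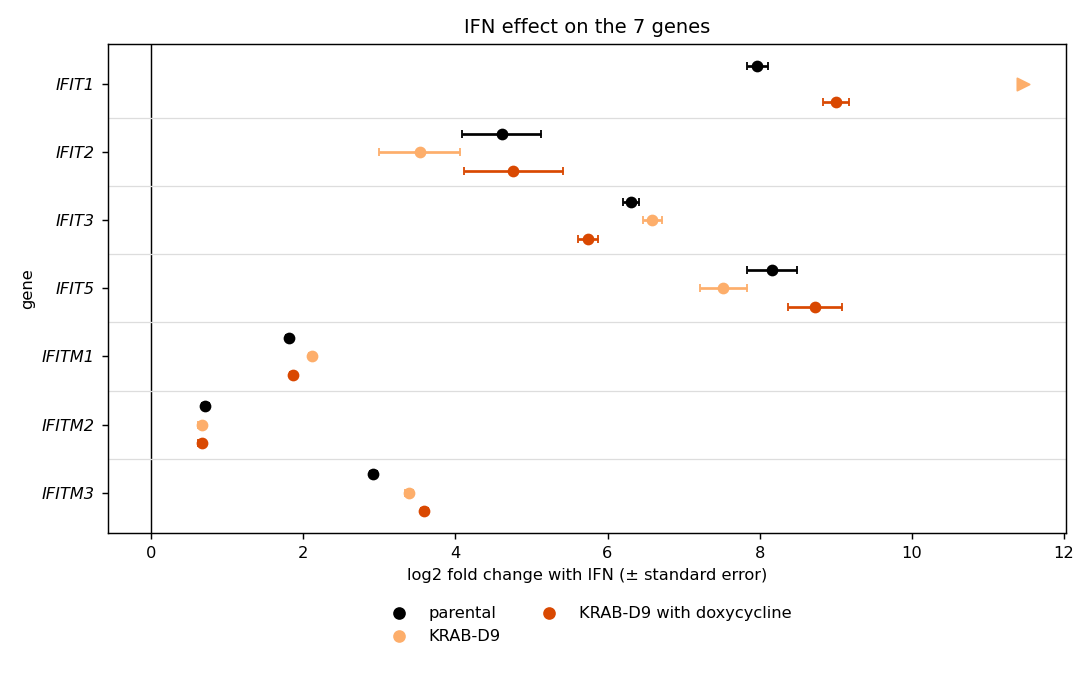
Log2 difference with IFN against the matching group without IFN for the 7 genes in parental cells, KRAB-D9 and KRAB-D9 with doxycycline; filled circles passed the edgeR test, bars are 1 SE, and the right-pointing triangle is the lower bound for IFIT1 in KRAB-D9. The IFIT genes lie between 3.53 and 9.01 or at the bound, the IFITM genes between 0.66 and 3.59, with IFITM2 lowest in every setting.

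The IFITM genes started higher and rose less, and they ranked the same way in each setting: IFITM3 first, then IFITM1, then IFITM2. IFITM3, the endosomal member best known for restricting influenza virus, went from 61.3 and 64.4 to 472.7 and 478.5 CPM in parental cells, a rise of 2.92 ± 0.05 (edgeR adjusted p = 1.74e-34). In KRAB-D9 it went from 48.7 and 51.6 to 527.4 and 527 CPM (3.39 ± 0.05), and with doxycycline from 37.6 and 35.7 to 442.5 and 438.3 CPM (3.59 ± 0.05). IFITM1, the plasma membrane member, went from 346.5 and 356.6 to 1224 and 1249 CPM in parental cells, a rise of 1.81 ± 0.04 (edgeR adjusted p = 7.11e-32). Its rise was 2.11 ± 0.04 in KRAB-D9 and 1.86 ± 0.04 with doxycycline, where the IFN libraries stood at 1397 and 1288 and at 1398 and 1368 CPM. IFITM2 changed least: from 90.4 and 91.1 to 147.2 and 150.1 CPM in parental cells, from 80.2 and 78.95 to 127.4 and 124.2 CPM in KRAB-D9, and from 42.8 and 40.6 to 65.7 in both libraries with doxycycline. Its rises were 0.71 ± 0.05, 0.66 ± 0.05 and 0.66 ± 0.05 (edgeR adjusted p from 2.06e-14 to 1.59e-12). No IFN-treated library overlapped its control for any IFITM gene, a separation whose share over all genes was not counted.

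The IFITM genes resemble each other in sequence, so reads may have been lost or shared among them. In the GENCODE 29 transcripts, 32% of the stretches of 50 bases in IFITM1, 34.1% in IFITM2 and 17.4% in IFITM3 also occur in transcripts of other genes, mostly of one another, while the IFIT genes have 0 to 7.5%. How the counting treated reads that fit several genes is not given in the sources used here. With the 3 genes added into 1 row, IFN raised the sum by 1.88 ± 0.04 in parental cells, 2.18 ± 0.04 in KRAB-D9 and 2.04 ± 0.04 with doxycycline (edgeR adjusted p from 8.48e-35 to 9.86e-33). The overlap of IFITM3 with the long noncoding gene RP11-326C3.11, at most 7.447 CPM, was small beside its own level.

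**Figure D3:**
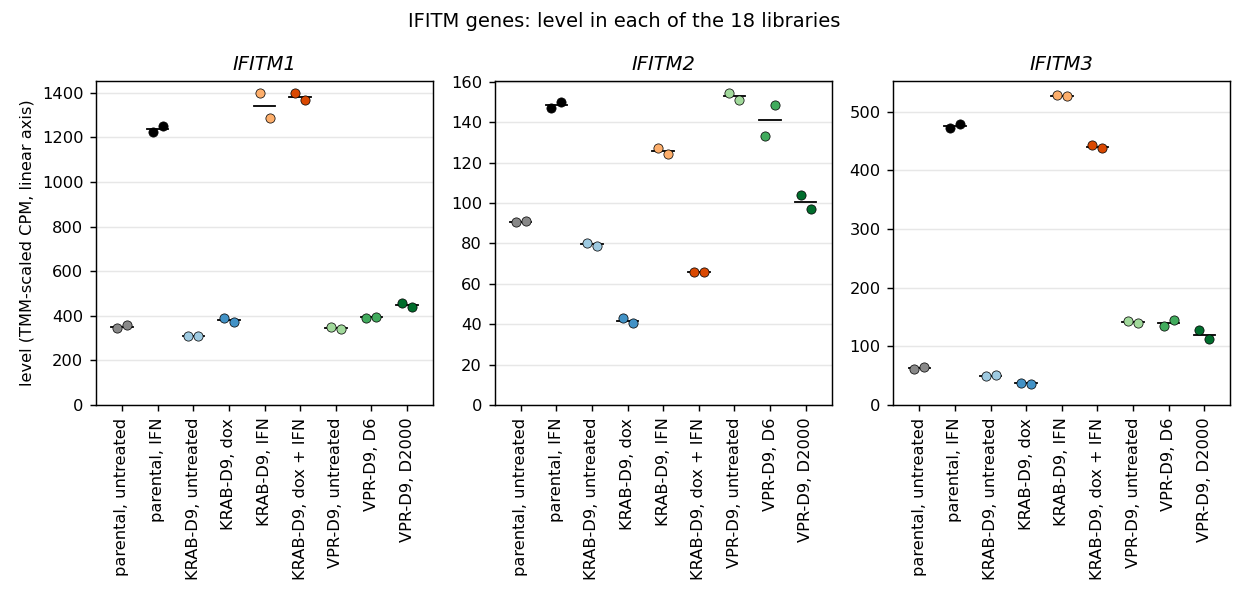
Levels of the 3 IFITM genes in each of the 18 libraries, in TMM-scaled CPM on a linear axis from 0, by group; points are libraries. The 6 IFN-treated libraries stand at 1224 to 1398 CPM for IFITM1 and 438.3 to 527.4 CPM for IFITM3, and IFITM2 is lowest in the 2 doxycycline-treated KRAB-D9 libraries, at 42.8 and 40.6 CPM.

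The size of the IFN response was compared between settings with the interaction term of the same model. In KRAB-D9 against parental cells 3 members were called with a larger response, where 0.145% of all genes were. IFITM3 responded by 0.47 ± 0.07 more in KRAB-D9 (edgeR adjusted p = 9.66e-05) and IFITM1 by 0.30 ± 0.05 more (0.00204). IFIT1 was the other one (edgeR adjusted p = 0.000148), and the size of its difference has no meaning because the untreated KRAB-D9 libraries had no count. These larger responses came with lower untreated levels in KRAB-D9, described with the untreated lines. With IFN itself the order between the lines differed by gene: IFIT1 and IFIT3 were highest in parental cells, and IFITM1 and IFITM3 were higher in KRAB-D9, with no overlap of the libraries. That order was not tested. In KRAB-D9 with against without doxycycline, 1 member was called with a smaller response, IFITM1 by -0.26 ± 0.05 (edgeR adjusted p = 0.0235), where 0.0948% of all genes were. That call was lost with only these 4 groups in the model (adjusted p = 0.309) and without untreated KRAB-D9 replicate 1 (0.0787) or 2 (0.0921), KRAB-D9 with IFN replicate 1 (0.0588), KRAB-D9 with doxycycline replicate 1 (0.149) or KRAB-D9 with both treatments replicate 2 (0.12). IFIT1 missed the threshold in the same comparison (edgeR adjusted p = 0.0668) and passed it with no low-count filter (0.00534), with DESeq2 (0.0423) and without KRAB-D9 with IFN replicate 1 (0.0285) or 2 (0.0031). IFIT3 (-0.85 ± 0.25, 0.202) passed without KRAB-D9 with IFN replicate 2 (0.0238).

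Around the 7 genes, the pathway moved as follows with IFN, where 3.03%, 3.98% and 3.12% of all genes were called higher in the 3 settings. Of 44 other antiviral effectors and sensors tested, SAMD9 among them, 44 rose in each of the 3 settings, with median log2 differences of 4.14, 4.62 and 4.21. ISG15, the ubiquitin-like modifier, rose by 7.03 ± 0.06 in parental cells, 7.12 ± 0.06 in KRAB-D9 and 6.87 ± 0.06 with doxycycline. IFI27, a mitochondrial interferon-induced protein, rose by 9.18 ± 0.08, 8.43 ± 0.08 and 8.92 ± 0.08. Of 17 genes of the receptor and ISGF3 signalling, 6, 7 and 6 rose, with medians of 0.20, 0.21 and 0.19. IRF7, a transcription factor of the interferon response, rose by 4.26 ± 0.13, 4.40 ± 0.13 and 3.87 ± 0.11. Of 10 genes that act on RNA caps, the features that IFIT1 reads, or on other RNA 5′ ends, 1 rose in each setting. This was CMTR1, which methylates the first transcribed nucleotide, by 0.65 ± 0.05, 0.70 ± 0.05 and 0.56 ± 0.05 (edgeR adjusted p from 2.71e-15 to 2.37e-12). Of 13 genes whose products modify or bind IFITM proteins, 0, 1 and 0 rose; the 1 was ZMPSTE24, a protease that acts with IFITM proteins, by 0.25 ± 0.05 in KRAB-D9 (edgeR adjusted p = 0.00074), a call lost with only the compared groups in the model (0.0653). Of 21 type I and III interferon genes, 5 were in the table and 0 passed the low-count filter.

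Doxycycline in KRAB-D9 cells without IFN moved the IFITM genes in different directions. IFITM2 fell from 80.2 and 78.95 to 42.8 and 40.6 CPM, by 0.93 ± 0.05 on the log2 scale (edgeR adjusted p = 6.2e-17). IFITM3 fell from 48.7 and 51.6 to 37.6 and 35.7 CPM, by 0.45 ± 0.05 (1.5e-08). IFITM1 rose from 311.5 and 308.3 to 389.5 and 373.1 CPM, by 0.30 ± 0.04 (4.87e-08). For all 3 genes the treated and untreated libraries did not overlap, a separation whose share over all genes was not counted. The IFITM sum had a log2 difference of 0.06 ± 0.04 that did not pass the test (edgeR adjusted p = 0.224). IFITM1 held 57.8 to 84.9% of the IFITM RPKM in the 9 groups, so the sum mainly follows IFITM1. Whether reads shared among the 3 genes moved between them was not tested. The share of IFITM2 in the summed IFITM RPKM was 20.6 ± 0.13% without and 10.3 ± 0.071% with doxycycline, and that of IFITM1 72.5 ± 0.19% and 84.9 ± 0.089%.

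The IFIT genes had few counts in either group. IFIT1 had 0 counts in both untreated libraries and 8 and 5 counts with doxycycline, at least 4.16-fold higher against a floor of 3 counts over the group (edgeR adjusted p = 0.00247). IFIT2 (18 counts untreated, 5 with doxycycline), IFIT5 (12 and 4) and IFIT3 (88 and 99) did not pass the test, with log2 differences of -1.88 ± 0.85, -1.59 ± 0.90 and 0.11 ± 0.23 and overlapping libraries. IFIT2 passed without untreated replicate 1 (adjusted p = 0.0246) or doxycycline replicate 1 (0.015), and so did IFIT5 (0.0393 and 0.0408). The counts are too few for these differences to be placed on either side of 0 with confidence. In all, 2 members were called higher and 2 lower, where 12% and 12.7% of all genes were, and the members' median was -0.45 against 0.02 over all genes.

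With IFN present, doxycycline lowered part of the family. IFITM2 fell from 127.4 and 124.2 CPM with IFN alone to 65.7 CPM in both libraries with both agents (-0.94 ± 0.05, edgeR adjusted p = 1.92e-17). IFIT3 fell from 89.2 and 85.4 to 53.3 and 51.2 CPM (-0.74 ± 0.08, 1.01e-09), IFIT1 from 88.6 and 86.0 to 69.0 and 65.8 CPM (-0.37 ± 0.08, 0.000392) and IFITM3 from 527.4 and 527 to 442.5 and 438.3 CPM (-0.26 ± 0.05, 3.08e-05). None of these 4 genes overlapped between the groups, a separation that members without a call also showed. IFIT2 (-0.65 ± 0.41, edgeR adjusted p = 0.306) and IFIT5 (-0.38 ± 0.17, 0.11) also lay lower in both libraries without passing the test. IFIT5 did pass with no low-count filter (0.0478) and with only the groups compared in the model (0.017). IFITM1 overlapped between the groups (0.04 ± 0.04, edgeR adjusted p = 0.476), and it passed as higher when library totals replaced the TMM scaling (0.10, 0.0285) or without KRAB-D9 with IFN replicate 1 (0.10, 0.0445). On the TMM scale 0 members were called higher and 4 lower, where 10.4% and 11.9% of all genes were, and the members' median was -0.38 against 0.01. With library totals 1 was called higher and 4 lower, where 14% and 8.83% of all genes were. The IFITM sum differed by -0.08 ± 0.04 (adjusted p = 0.119), and the share of IFITM2 in it was 7.77 ± 0.21% with IFN alone and 4.24 ± 0.054% with both.

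With both agents against no treatment in KRAB-D9, 6 members were higher and 1 lower, where 12.5% of all genes were called in each direction (15.3% and 9.95% with library totals). The lower one was IFITM2, at -0.28 ± 0.05 (edgeR adjusted p = 4.18e-05), with 65.7 CPM in both libraries against 80.2 and 78.95 CPM untreated. IFITM3 stood 3.13 ± 0.05 and IFITM1 2.16 ± 0.04 above the untreated cells, IFIT3 5.85 ± 0.13, IFIT5 7.14 ± 0.31 and IFIT2 2.88 ± 0.53. IFIT1 was at least 2190-fold higher. Without replicate 1 or 2 of untreated KRAB-D9 the IFIT5 value was 6.27 or 8.79 and the IFIT2 value 2.13 or 4.18, all called.

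Among the other antiviral effectors 12 rose and 4 fell with doxycycline alone (median 0.15), and 5 rose and 16 fell with doxycycline beside IFN (median -0.16). SAMD9, the gene the study names, is in this list and counts among those that fell in both. Of all genes 12% rose and 12.7% fell with doxycycline alone, and 10.4% and 11.9% beside IFN. This list held 44 tested genes, the signalling list 17 and the list of IFITM modifiers and partners 13. LY6E, a membrane protein that also acts on viral entry, fell in both, by 1.30 ± 0.05 and by 0.64 ± 0.05 (edgeR adjusted p = 1.05e-21 and 5.09e-14). UBE2L6, the enzyme that transfers ISG15, rose by 0.81 ± 0.09 with doxycycline alone. DHX58, a helper of RNA sensors, rose by 0.97 ± 0.13 beside IFN. In the signalling list 3 rose and 4 fell without IFN (median 0.05) and 2 rose and 4 fell with it (-0.14), with STAT2 higher by 0.50 ± 0.05 and 0.22 ± 0.05 and the brake SOCS1 lower by -1.03 ± 0.18 and -0.95 ± 0.18. IRF7 also rose and PTPN11 also fell in both. With 1 library left out at a time IRF7 ran from 0.96 to 1.05 without IFN and 0.35 to 0.60 with it. PTPN11 ran from -0.27 to -0.25 and from -0.19 to -0.16. Among the IFITM modifiers and partners 1 rose and 7 fell in each (medians -0.16 and -0.12, or 1 and 4 beside IFN with library totals). ZMPSTE24 fell by 0.40 ± 0.05 and 0.54 ± 0.05, the tetraspanin CD81 by 0.31 ± 0.05 and 0.32 ± 0.05, and the tetraspanin CD9 rose by 1.52 ± 0.33 and 1.14 ± 0.33, the latter lost without replicate 1 of both agents (edgeR adjusted p = 0.157).

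**Figure D4:**
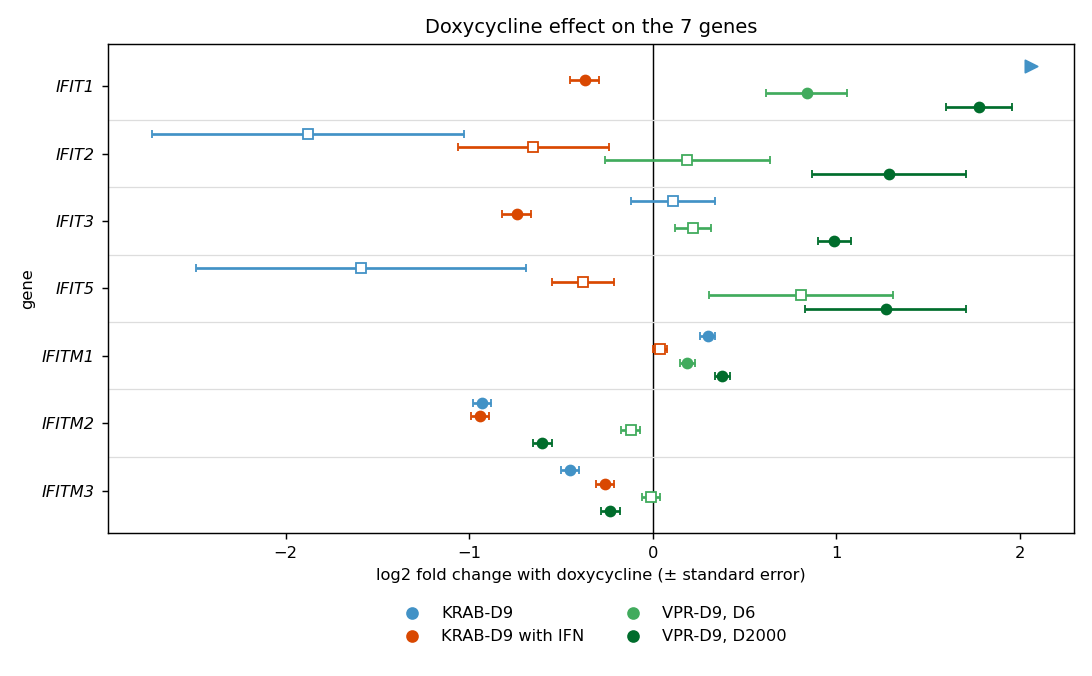
Log2 difference with doxycycline for the 7 genes in KRAB-D9 without IFN, KRAB-D9 with IFN, and VPR-D9 in the groups D2000 and D6; filled circles passed the edgeR test, open squares did not, bars are 1 SE, and the right-pointing triangle is the lower bound for IFIT1. IFITM2 lies at -0.93, -0.94, -0.60 and -0.12, while IFIT3 lies at 0.11, -0.74, 0.99 and 0.22.

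In VPR-D9 cells the D2000 group differed from the untreated group in all 7 genes. The 4 IFIT genes rose: IFIT1 from 0.954 and 0.505 to 2.38 and 2.62 CPM (1.78 ± 0.18, edgeR adjusted p = 8.87e-11), and IFIT3 from 7.63 and 6.99 to 13.2 and 15.9 CPM (0.99 ± 0.09, 1.04e-11). IFIT2 went from 0.887 and 0.647 to 1.43 and 2.32 CPM (1.29 ± 0.42, edgeR adjusted p = 0.0115), and IFIT5 from 0.167 and 0.174 to 0.320 and 0.515 CPM (1.27 ± 0.44, 0.0168). No treated library overlapped an untreated one, which is no support for the calls, and the calls of the 2 low genes were fragile. IFIT2 was lost without untreated replicate 2 (adjusted p = 0.123) or D2000 replicate 2 (0.172). IFIT5 was lost without untreated replicate 1 (0.0855) or 2 (0.0816), without D2000 replicate 2 (0.201), and with only these groups in the model (0.119).

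The IFITM genes again went separate ways in D2000. IFITM1 rose from 348 and 341.6 to 456 and 439.3 CPM (0.38 ± 0.04, edgeR adjusted p = 2.92e-11). IFITM2 fell from 154.7 and 150.8 to 103.8 and 97.1 CPM (-0.60 ± 0.05, 1.11e-13) and IFITM3 from 142.5 and 139.5 to 128 and 111.8 CPM (-0.23 ± 0.05, 6.63e-05). The IFITM sum differed by 0.07 ± 0.04 (adjusted p = 0.146), and the share of IFITM2 in it was 28.3 ± 0.095% untreated and 17.7 ± 0.16% in D2000. The limit from shared reads holds here too. With library totals in place of TMM the median of all genes in this comparison moved from 0.06 to 0.29. On that scale IFITM3 stood at 0 (adjusted p = 0.953), below the shifted median, IFITM2 was still lower at -0.37 (1.16e-08) and the IFITM sum was higher at 0.30 (9.01e-10). On the TMM scale 5 members were called higher and 2 lower, where 21.9% and 24.2% of all genes were, and the members' median was 0.99 against 0.06. With library totals 5 were called higher and 1 lower, where 32.5% and 14.8% of all genes were.

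The D6 group moved fewer of the genes. IFITM1 rose to 392.2 and 394.8 CPM (0.19 ± 0.04, edgeR adjusted p = 0.000565) and IFIT1 to 1.14 and 1.46 CPM (0.84 ± 0.22, 0.0136), the 2 members called higher, with 0 lower, where 3.19% and 3.41% of all genes were (3.97% and 1.78% with library totals). The IFIT1 call was lost without untreated replicate 2 (0.44, adjusted p = 0.424), without D6 replicate 2 (0.65, 0.233) and with only these groups in the model (0.14). The other 5 did not pass: IFIT3 at 9.09 and 7.93 CPM (0.22 ± 0.10), IFIT5 at 0.405 and 0.188 (0.81 ± 0.50), IFIT2 at 1.235 and 0.501 (0.19 ± 0.45), IFITM2 at 133.4 and 148.4 (-0.12 ± 0.05, called without D6 replicate 2 at -0.20, adjusted p = 0.0421) and IFITM3 at 135.3 and 145.6 CPM (-0.01 ± 0.05). The median of the 7 was 0.19 against -0.01 over all genes.

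D6 and D2000, which had like levels of SAMD9, were tested against each other directly. In D6 4 members were lower and 2 higher than in D2000, where 18.8% and 21.7% of all genes were called. With library totals 4 were lower and 1 higher, where 29.3% and 13.3% of all genes were called. The median of all genes then moved from -0.05 to -0.25. On the TMM scale IFIT3 was lower by -0.77 ± 0.09 (edgeR adjusted p = 9.05e-09), IFIT1 by -0.94 ± 0.17 (1.32e-05), IFITM1 by -0.19 ± 0.04 (6.55e-05) and IFIT2 by -1.10 ± 0.42 (0.0365). IFITM2 was higher by 0.49 ± 0.05 (edgeR adjusted p = 5.98e-11) and IFITM3 by 0.23 ± 0.05 (0.000123). The IFIT2 call was lost without D2000 replicate 2 (adjusted p = 0.325) or D6 replicate 2 (0.404), and the IFITM3 call without D2000 replicate 2 (0.0575) or with library totals (0.03, 0.585). IFIT5 overlapped between the groups (-0.46 ± 0.41).

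Around the members, 27 of the 44 other antiviral effectors rose and 4 fell in D2000 (median 0.48), and 11 rose and 1 fell in D6 (median 0.15). SAMD9, the gene the study names, counts among those that rose in both. Of all genes 21.9% rose and 24.2% fell in D2000, and 3.19% and 3.41% in D6. LY6E rose in both, by 1.55 ± 0.05 and 0.86 ± 0.05. BST2, which tethers budding virions, was lower by -0.29 ± 0.04 and -0.19 ± 0.04, calls lost in D2000 with library totals (adjusted p = 0.214) and in D6 without untreated replicate 1 (0.115) or D6 replicate 1 (0.0581). Of the signalling genes 7 rose and 4 fell in D2000 (median 0.06), with STAT2 higher by 0.58 ± 0.05 and JAK1 by 0.56 ± 0.05. Of the IFITM modifiers and partners 3 rose and 7 fell (median -0.18, or 5 and 3 with library totals), and VAPA, a membrane contact protein that binds IFITM3, fell by 0.77 ± 0.04 and ZMPSTE24 by 0.88 ± 0.05. Among those that rose were CD9 and NEDD4, by 1.83 to 2.73 and 0.34 to 0.39 with 1 library left out at a time. Of 14 genes tested beside the IFITM cluster on chromosome 11, 4 rose and 8 fell in D2000 (median -0.22), against 5 and 6 (median 0.01) with library totals. Of 5 tested beside the IFIT cluster 0 rose and 1 fell (median 0.10), against 1 and 0 (median 0.33) with library totals, where 21.9% and 24.2% of all genes were called on the TMM scale and the median of all genes is 0.29 with library totals.

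The log2 effect of doxycycline was more positive in VPR-D9 (D2000) than in KRAB-D9 for 5 of the 7 genes by the interaction term. Of all genes 12.2% were called in that direction. With library totals 6 of the 7 genes were, where 19% of all genes were. IFITM2 fell less in VPR-D9, with a difference of 0.33 ± 0.07 between the log2 effects (edgeR adjusted p = 0.000288), and so did IFITM3 (0.22 ± 0.07, 0.0159). IFIT3 differed by 0.88 ± 0.25 (edgeR adjusted p = 0.00604), IFIT2 by 3.17 ± 0.94 (0.0083) and IFIT5 by 2.86 ± 1.00 (0.0253). In KRAB-D9, IFIT2 had 18 counts untreated and 5 with doxycycline, and IFIT5 had 12 and 4. These counts are too few to give the size of the IFIT2 and IFIT5 differences. For IFITM1 the difference was 0.08 ± 0.05 (0.303), and it was called with library totals (0.27, 2.8e-05). IFIT1 missed the threshold (0.0704) and was called as the smaller effect in VPR-D9 without untreated VPR-D9 replicate 2 (0.0244), a difference with no usable size because untreated KRAB-D9 had no count. Without KRAB-D9 with doxycycline replicate 2 the count of called members was 1 and without untreated KRAB-D9 replicate 2 it was 2. IFITM2 kept its call without any 1 library, at 0.27 to 0.40. Without any 1 library the IFIT2 difference ran from 1.87 to 7.63 and that of IFIT5 from 1.20 to 7.01, in both cases highest without KRAB-D9 with doxycycline replicate 1 and lowest without untreated KRAB-D9 replicate 2. IFIT2 was lost without either of the 2 libraries named first (0.0794 and 0.316), and IFIT3 without KRAB-D9 with doxycycline replicate 2 (0.0804) or untreated KRAB-D9 replicate 1 (0.127). IFIT5 was lost without untreated VPR-D9 replicate 1 (0.0504), D2000 replicate 2 (0.0716), untreated KRAB-D9 replicate 2 (0.654) or KRAB-D9 with doxycycline replicate 2 (0.163), and with only these groups in the model (0.174). IFITM3 was lost without untreated VPR-D9 replicate 2 (0.0672), D2000 replicate 1 (0.282), untreated KRAB-D9 replicate 2 (0.0859) or KRAB-D9 with doxycycline replicate 2 (0.108).

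Before any treatment the 3 lines differed in these genes. In untreated VPR-D9, IFITM3 was 1.17 ± 0.05 above the parental line (141 ± 2.1 against 62.8 ± 2.2 CPM, SD, n = 2 and 2, edgeR adjusted p = 1.1e-21) and IFITM2 0.75 ± 0.05 (152.7 ± 2.8 against 90.8 ± 0.48 CPM, 7.5e-16). IFIT3 was higher by 2.00 ± 0.13 (7.31 ± 0.45 against 1.83 ± 0.35 CPM, edgeR adjusted p = 7.98e-16) and IFIT2 by 2.15 ± 0.55 (0.767 ± 0.17 against 0.171 ± 0.013 CPM, 0.00169). IFITM1 (-0.03 ± 0.04), IFIT5 (1.32 ± 0.70) and IFIT1 (0.49 ± 0.27) did not pass, IFIT1 passing without untreated VPR-D9 replicate 2 (0.89, adjusted p = 0.011). So 4 members were called higher and 0 lower, where 18.5% and 18.2% of all genes were, with a median of 1.17 against 0. In untreated KRAB-D9, 5 members were lower and 0 higher, where 14.3% and 14.2% of all genes were, with a median of -0.19 against 0.01. IFIT1 had 0 counts against 54 in the 2 parental libraries, at least 16.7-fold lower (edgeR adjusted p = 4.77e-08). IFIT3 was lower by -1.01 ± 0.20 (edgeR adjusted p = 0.000125), IFITM3 by -0.32 ± 0.05 (3.36e-06), IFITM2 by -0.19 ± 0.05 (0.0032) and IFITM1 by -0.18 ± 0.04 (0.000189). IFIT2 and IFIT5, with 18 and 12 counts over the 2 KRAB-D9 libraries, overlapped with the parental libraries.

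Across the 9 groups IFIT1 and IFIT3 had the same order of mean levels, and each of the other genes had its own. IFIT1 and IFIT3 ran from IFN-treated parental cells through KRAB-D9 with IFN, KRAB-D9 with both agents, D2000, D6 and untreated VPR-D9 to untreated parental cells. For IFIT1 the untreated VPR-D9 and parental libraries overlapped, and for IFIT3 the doxycycline-treated and untreated KRAB-D9 libraries at the bottom did. IFIT5 was highest in KRAB-D9 with IFN, followed by IFN-treated parental cells and KRAB-D9 with both agents, which overlapped, and its 6 groups without IFN had means of 0.0399 to 0.417 CPM, where D2000 and D6 overlapped and lay above the other 4, except that 1 untreated KRAB-D9 library (0.227 CPM) exceeded 1 D6 library (0.188 CPM). For IFIT2 only the IFN-treated parental group stood clear at the top, since KRAB-D9 with IFN, D2000 and KRAB-D9 with both agents overlapped in sequence. IFITM1 had KRAB-D9 with both agents and KRAB-D9 with IFN at the top, overlapping, and IFITM3 had KRAB-D9 with IFN first, clear of parental cells with IFN. IFITM2 was the exception, with its highest mean in untreated VPR-D9 (152.7 CPM), then IFN-treated parental cells (148.6) and D6 (140.9), these last 2 overlapping.

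**Figure D5:**
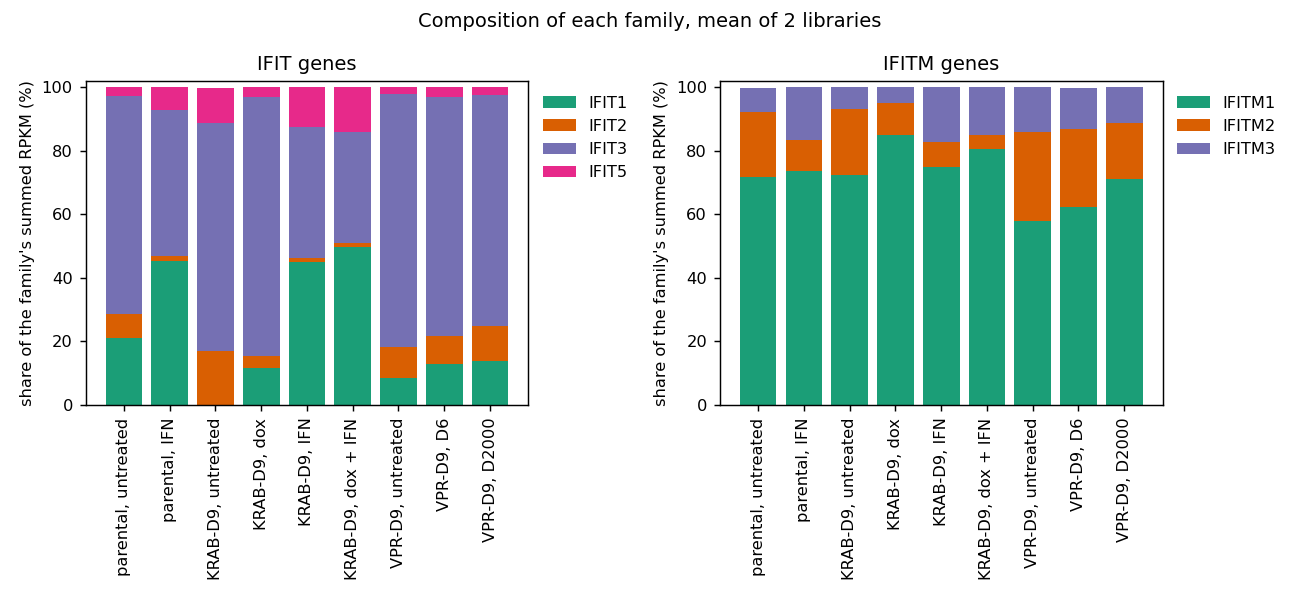
Mean share of each gene in the summed RPKM of its family by group, for the IFIT family and for the IFITM family, in percent; stacked bars add to the whole of each family. IFITM1 makes up 57.8 to 84.9% of the IFITM sum, IFITM2 is at 20.5% in untreated and 9.78% in IFN-treated parental cells, and IFIT1 makes up 45.2% of the IFIT sum in IFN-treated parental cells.

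The make-up of each family shifted with IFN. In parental cells IFIT3 was 68.4% of the summed IFIT RPKM without IFN and 46% with it, while IFIT1 went from 21.1% to 45.2% and IFIT2 from 7.68% to 1.58%. In the IFITM family of those cells IFITM1 kept a like share (71.9 ± 0.14% and 73.6 ± 0.064%), IFITM2 went from 20.5 ± 0.27% to 9.78 ± 0.0074% and IFITM3 from 7.53 ± 0.12% to 16.6 ± 0.071%. In VPR-D9 without treatment IFITM1 had its lowest share, 57.8 ± 0.092%.

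The genes whose log2(CPM + 1) followed each member most closely over the 18 libraries were sought among 13544 genes with a mean of at least 1 CPM. These correlations describe libraries that share treatments and carry no test. IFIT1 was followed most closely by HERC6 (Pearson r = 0.993), DDX60 (0.993) and OAS2 (0.992), IFIT5 by MX1 (0.997), XAF1 (0.996) and HERC6 (0.996), and IFIT3 by ISG15 (0.989), HLA-C (0.988) and PARP14 (0.981). IFITM1 was nearest to OAS3 (0.995), OAS1 (0.994) and RP11-288L9.4 (0.993), and IFITM3 to ISG15 (0.986), PARP14 (0.983) and IFIH1 (0.982). IFIT2 was nearest to PSMB9 (0.935), IFI35 (0.93) and LGALS3BP (0.905). IFITM2 stood apart: its nearest genes were MLKL (0.947), MOGS (0.933) and KIAA2013 (0.915), and its r with the other 6 members was 0.146 to 0.554, where those 6 had 0.762 to 0.989 among themselves.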

How the data were processed

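PolyA RNA of 18 K562 libraries was sequenced with a stranded kit, per the labels' protocols. The submitters' processing notes name cutadapt 2.10, FastQC 0.11.9, STAR 2.7.8a, featureCounts 2.0.2 and GRCh38.p13. The authors deposited raw read counts per gene for 41285 genes, with gene positions and lengths. Not given in the sources used here are the annotation release, the strand setting and the handling of reads that fit several genes.

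The counts were tested with edgeR 4.0.16 (R 4.3.3, limma 3.58.1): TMM scaling, filterByExpr (22143 genes kept) and a robust quasi-likelihood fit of 9 group means over all 18 libraries (9 residual degrees of freedom). Adjusted p-values are Benjamini-Hochberg over all genes tested, called under 0.05, and the SE is the log2 difference divided by the square root of F. Folds against a group with 0 counts use a floor of 3 counts over the group and cover counting error only; list medians were the same with IFIT1 at its bound. The code was tested on simulated data. Alternatives were DESeq2 size factors, library totals, 2 other low-count filters, DESeq2 1.42.0, only the groups compared, the replicate block, the summed IFITM genes, and each library left out.

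The text names all 7 members, SAMD9, from each list the called genes whose adjusted p-values were the 2 smallest in each direction (a selection of these is printed, and 1 gene is not reported here), and the 3 genes most like each member. Genes printed beyond that rule were chosen after their values were seen. The members follow from a rule on gene symbols, but this gene family and the lists were chosen for study with earlier results of these data known. The lists hold interferon signalling genes, other antiviral effectors, genes that act on RNA caps and 5′ ends, IFITM modifiers, interferon genes, chromosomal neighbours, and other IFIT and IFITM genes.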

Additional observations from a re-analysis of the deposited data

Results flagged for a closer look

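By the edgeR interaction test, 3 genes responded to IFN differently in KRAB-D9 and in parental cells. The difference was 0.47 for IFITM3 (adjusted p = 9.66e-05) and 0.30 for IFITM1 (0.00204) on the log2 scale. For IFIT1 the fitted difference was 7.21 (0.000148), a value set by the prior count, since untreated KRAB-D9 had 0 counts. Within KRAB-D9 the IFITM1 response was smaller with doxycycline, by -0.26 (edgeR adjusted p = 0.0235), a call lost with only the compared groups in the model (0.309) and without any of 5 of the 8 libraries (0.0588 to 0.149).

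The effect of doxycycline differed between VPR-D9 (D2000) and KRAB-D9 for 5 genes by the same test. The differences were 3.17 for IFIT2 (edgeR adjusted p = 0.0083), 0.88 for IFIT3 (0.00604), 2.86 for IFIT5 (0.0253), 0.33 for IFITM2 (0.000288) and 0.22 for IFITM3 (0.0159). On leaving out 1 of the 8 libraries at a time these ran from 1.87 to 7.63, 0.65 to 1.12, 1.20 to 7.01, 0.27 to 0.40 and 0.11 to 0.33. The call was lost without 2 of the libraries for IFIT2, 2 for IFIT3, 4 for IFIT5 and 4 for IFITM3, and without 0 for IFITM2. In KRAB-D9, IFIT2 had 18 counts untreated and 5 with doxycycline, and IFIT5 had 12 and 4. These counts are too few to give the size of the IFIT2 and IFIT5 differences. The time in doxycycline without IFN is not given for either line in the sources used here, so line and exposure cannot be told apart.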

How the results depend on the processing

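Over 109 values for the 7 genes and the IFITM sum, 757 recomputed values from alternatives other than leaving out a library gave 735 with the same direction and side of the threshold, 6 that lost the call, 11 that gained it and 5 that turned direction. Of 520 leave-one-out values these numbers were 463, 27, 13 and 17. With library totals the IFITM sum became called with doxycycline in KRAB-D9 (0.10, edgeR adjusted p = 0.0164), in D2000 (0.30, 9.01e-10), in D6 (0.11, 0.0234) and in D6 against D2000 (-0.18, 1.42e-05). On that scale IFITM3 in D6 was 0.03, IFITM1 in untreated VPR-D9 0.04, and RNGTT and RNMT in D2000 turned to 0.08 and 0.02. With a filter at 1 CPM the sum was 0.11 in D2000 (0.00778) and -0.02 in D6 against D2000 (0.577). With only the groups compared, D6 had 1 called member, IFITM3 in D6 was 0.01 and the sum in D6 0.10 (0.00805), and the IFN response with against without doxycycline had 0 called members; it had 2 with no low-count filter and 2 with DESeq2. Leave-one-out ranges were -0.14 to 0.33 for IFIT3, -5.75 to 0.07 for IFIT5 with doxycycline in KRAB-D9; -0.01 to 0.10 for IFITM1 and -0.12 to -0.05 for the sum with doxycycline beside IFN; 0.02 to 0.12 for the sum in D2000; -0.61 to 0.68 for IFIT2 and -0.06 to 0.04 for IFITM3 in D6; and -0.04 to 0.06 for the sum in D6 against D2000. For the IFN response in KRAB-D9 against parental cells they were -1.83 to 0.22 for IFIT2 and -1.51 to 1.02 for IFIT5, and with against without doxycycline -0.07 to 5.70 for IFIT2 and -0.45 to 5.37 for IFIT5. For untreated lines they were -0.02 to 0.89 for IFIT1 in VPR-D9, and -1.17 to 0.88 for IFIT2 and -0.80 to 1.73 for IFIT5 in KRAB-D9. Called members ranged from 1 to 2 in D6, 0 to 3 for the IFN response with against without doxycycline, 1 to 5 for the doxycycline effect between lines and 4 to 6 with doxycycline in KRAB-D9, and were 7 for IFN in all 3 settings. The cause of these changes was not tested. Replicate numbers did not pair the libraries (correlations of deviations from -0.09 to 0.13 over 36 pairs of groups); with the replicate block IFITM2 differed by 0.33 between the doxycycline effects as without it, and none of the 109 calls changed, though VAPA in D6 was lost (-0.12, 0.0508). IFIT2 and IFIT5 without IFN rest on few counts, which limits every difference between untreated groups.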

Other observations

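XRN1, which degrades RNA from its 5′ end, is in the list of genes that act on RNA caps and 5′ ends. It rose with doxycycline in KRAB-D9 without IFN (0.52 ± 0.05), with IFN (0.45 ± 0.05) and in D2000 (0.41 ± 0.05), with edgeR adjusted p from 1.17e-10 to 3.69e-09. In the 10 genes of that list 2 rose and 1 fell without IFN (12% and 12.7% of all genes), 1 rose and 0 fell with IFN (10.4% and 11.9%), and 2 rose and 3 fell in D2000 (21.9% and 24.2%). The list medians were 0, 0 and 0.03. In D2000 these counts rest on the scaling: with library totals 6 rose and 0 fell (median 0.26, where that of all genes is 0.29). Of the genes beside the IFIT cluster, LIPA rose with IFN in parental cells (2.58 ± 0.69, edgeR adjusted p = 0.0201) and KRAB-D9 (3.24 ± 0.87, 0.0151); its span overlaps IFIT genes, and the strand setting of the counting is not given, so its reads and theirs cannot be told apart. Of the 14 tested beside the IFITM cluster, 2, 4 and 1 rose with IFN in parental cells, KRAB-D9 and KRAB-D9 with doxycycline, where 3.03%, 3.98% and 3.12% of all genes did; the list medians were 0.04, 0.03 and 0.01, against 0 over all genes. PGGHG, a neighbour of the IFITM genes, rose in the first 2 of these (0.41 ± 0.06 and 0.34 ± 0.05) and in D2000 (0.75 ± 0.05, edgeR adjusted p = 3.31e-15). It was picked after its values were seen. In D2000, 4 of the 14 neighbours rose and 8 fell on the TMM scale (median -0.22), where 21.9% and 24.2% of all genes did. Of 6 other IFIT and IFITM genes and pseudogenes, 2 were tested and 0 were called in any of the IFN comparisons.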
